A study of Mus musculus with 4 samples.

Results

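The 38 genes described here encode proteins that copy DNA and prepare cells for S phase. They were taken from a list of gene symbols, and 38 of 38 were found among the 17561 genes of the count table. The cells were CD8+ T cells sorted from the BM of mice 4 weeks after SCT, in 4 libraries with 1 library per treatment and 5 mice pooled in each. Recipients were on the C57BL/6 background, either WT or CRBN transgenic, and every group was transplanted with BM and T cells from donors of matching genotype. According to the paper, recipients bore myeloma, which had been injected before the transplant. The groups were control mice given isotype antibody and vehicle, mice given the TIGIT antibody with vehicle, mice given lenalidomide with isotype antibody, and mice given the combination. The antibody was given from the day of transplant and lenalidomide from day 14. The deposited tables number the libraries 1 to 4 and name no treatment for a number, so no value below belongs to a treatment and no treatments were compared. The libraries are not replicates, and no test was made.

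DNA replication begins with licensing, when the origin recognition complex with Cdc6 and Cdt1 loads the Mcm2-7 helicase onto origins in G1, while geminin (Gmnn) binds Cdt1 later in the cycle so that no origin is used again. Mcm10, Cdc45 and the GINS complex then activate the helicase, primase and the polymerases copy the strands, and Pcna, loaded by replication factor C, holds the polymerases on DNA. Many of these genes are targets of the E2F transcription factors, which are released from Rb proteins as cells pass from G1 into S phase. Resting naive and memory T cells are outside the cycle, while activated effector T cells divide fast.

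The table held 11754 cells, with 1725 to 4237 cells and 15556967 to 38440687 unique molecular identifiers (UMIs, each 1 captured RNA molecule) per library. Levels are the UMIs of a gene scaled to 1000000 UMIs of the same cells (CPM). All intervals are 95% intervals for counting error alone: exact Poisson ones for a level, binomial ones conditional on the total for the log2 ratio between a pair of levels, and Clopper-Pearson ones for a share of cells. The authors' 8 cluster names were used: Tn, Tcm, 5 effector or exhausted clusters (transitory Teff, GzmB+ Teff, GzmA+ Tex, TIGIT+ Teff and TIM-3+ Tex) and cycling cells. A total of 56 barcodes occurred in more than 1 library (112 cells), and 0 of them carried the same clonotype. Macrophage transcripts reached 1558 CPM in GzmA+ Tex and 8.07 to 88.8 CPM in every other cluster, and their part in the levels of that cluster was not tested. The cluster names were drawn from the genes of these same cells, so differences between clusters are descriptions.

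E2F sites are a sequence feature that the choice of the genes did not use. RefSeq promoters (GRCm38.p6, 250 bases before to 50 bases after each start) were given for 32 of the 38 genes, and Mcm4, Gins1, Gins2, Ccne2, Pole and Gmnn were not matched. Each promoter was searched on both strands for 4 E2F words (TTTGGCGC, TTTCCCGC, TTTGCCGC and TTTCGCGC). A word was found in 13 of 32 genes (40.6%), against 2.6% of 27025 genes with a promoter and 4.22% of the 12439 such genes in the count table. These 13 were Cdc6, Cdt1, Clspn, Lig1, Mcm3, Mcm5, Mcm6, Mcm7, Msh6, Pclaf, Pola1, Pold1 and Rfc3. Of 50 other genes of the replication pathway, 39 had a promoter and 15 (38.5%) held a word, and of 30 genes of mitosis, 27 had a promoter and 1 (3.7%) did. Median GC content was 59.8% in the 32 promoters and 59.4% in those of the count table. The windows below show the match in capitals for 4 licensing genes, the catalytic subunit of polymerase alpha (Pola1) and the Pcna-binding protein Pclaf, each read 5′ to 3′ on the strand of the gene.

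Mcm5, chr8:75109345-75109374, plus strand: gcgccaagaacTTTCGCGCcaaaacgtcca
Mcm6, chr1:128359734-128359763, minus strand: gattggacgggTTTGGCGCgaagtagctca
Mcm7, chr5:138172030-138172059, minus strand: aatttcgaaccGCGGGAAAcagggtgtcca
Cdc6, chr11:98908002-98908031, plus strand: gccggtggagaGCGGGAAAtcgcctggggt
Pola1, chrX:93632275-93632304, minus strand: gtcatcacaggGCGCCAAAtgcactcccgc
Pclaf, chr9:65890307-65890336, plus strand: gcttggagcgcGCGGGAAAgagacccattt

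The word on the opposite strand reads GCGGGAAA in Mcm7, Cdc6 and Pclaf and GCGCCAAA in Pola1. In Mcm5 a GCGCCAAA also overlaps the marked word, and its last bases are left in lower case. The CCAAT box (CCAAT, both strands) was found in 19 of 32 genes (59.4%), in 24 of 27 mitosis genes (88.9%), and in 41.1% of all genes with a promoter. It stood in the promoters of both ribonucleotide reductase genes, Rrm1 and Rrm2, which held none of the E2F words in this window. These 2 genes are shown because they stood apart among cycling cells, as described further on. A match is only a run of letters and does not show binding.

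Rrm1, chr7:102441638-102441667, plus strand: gtccgctttcacCCAATgtggtggaaagga
Rrm2, chr12:24708192-24708221, plus strand: ggtcagcggcgtCCAATgggaggcgaggcc

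The 38 genes together were far higher in cycling cells than in any other cluster. Their summed level was 4983, 5441, 5321 and 5415 CPM in cycling cells of libraries 1 to 4 and 5220 CPM over all of them (5193 to 5247). In Tn the sum was 883, 666, 739 and 868 CPM in the 4 libraries and 793 CPM in all cells, the lowest of the clusters when pooled, although Tcm were lower in library 1 (784 CPM). The 4 cycling values lay between 4983 and 5441, above the other clusters, whose highest single library value was 2107 CPM. The 1928 cycling cells were 16.4% of all cells and held 60.4% of the 231729 UMIs of the 38 genes, with 53.4% to 65.9% by library. The rest came from cells of the other 7 clusters.

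**Figure D1:**
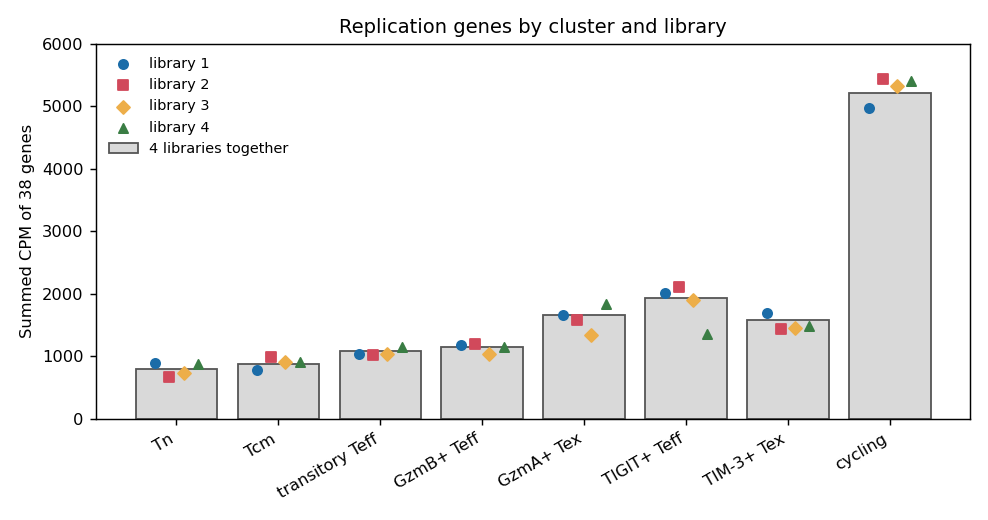
Summed CPM of the 38 genes (vertical axis) in each of the 8 clusters, with grey bars for the 4 libraries together and points for single libraries. Cycling cells lie between 4983 and 5441 CPM in the 4 libraries, and Tn between 666 and 883 CPM.

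Among the clusters outside cycling, the order of the summed levels was Tn (793 CPM), Tcm (877), transitory Teff (1076), GzmB+ Teff (1145), TIM-3+ Tex (1573), GzmA+ Tex (1652) and TIGIT+ Teff (1926). Neighbours in this order were often not separable across libraries. Transitory and GzmB+ Teff differed by a log2 ratio of 0.09 (single libraries -0.01 to 0.23). GzmA+ and TIM-3+ Tex differed by 0.07 (-0.11 to 0.30). TIGIT+ Teff were at 2011, 2107, 1897 and 1359 CPM in libraries 1 to 4, and in library 4, where this cluster held 59 cells, the level lay below those of GzmA+ Tex (1841) and TIM-3+ Tex (1491). The 30 mitosis genes summed to 6505 CPM in cycling cells, against 244 CPM in Tn, 673 CPM in TIGIT+ Teff, 663 CPM in GzmA+ Tex and 401 CPM in TIM-3+ Tex. In Tn, Racgap1 held 26.3% and Cks2 21.9% of the UMIs of these 30 genes.

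Cells differ in depth between clusters, with a median of 5545 UMIs in transitory Teff and 13960 in cycling cells (7834 in Tn), so each cell was also thinned at random to 2500 UMIs. At this depth 90.7% of cycling cells had 3 or more of the 38 genes detected (89.3% to 92.0%), with 89.0% to 93% by library. In Tn the share was 22.3% (20.1% to 24.6%), and it was 23.6% in Tcm. The highest share outside cycling cells was that of TIGIT+ Teff (57.7%, 54.2% to 61.1%), followed by TIM-3+ Tex (49.0%), GzmA+ Tex (45.0%), transitory Teff (39.9%) and GzmB+ Teff (30.7%). Detection of 10 or more genes in 1 cell was much less even. It applied to 46.8% of cycling cells and 10.8% of TIGIT+ Teff, to 4.90%, 2.56% and 2.32% of GzmA+ Tex, TIM-3+ Tex and GzmB+ Teff, and to 1.17%, 0.635% and 0.373% of Tcm, transitory Teff and Tn. Without thinning, 3 or more genes were found in 99.5% of cycling cells and in 81.4% of the cells of the other clusters. Free RNA in the droplets adds UMIs to all cells, and its part in the low shares was not tested.

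Gene by gene, cycling cells were compared with the pooled cells of the 5 Teff and Tex clusters. The log2 ratio of the summed levels was 1.88 (1.86 to 1.89), a 3.67-fold difference, with 1.68, 2.07, 1.91 and 2.01 in libraries 1 to 4. Of the 38 genes, 33 were at least 2-fold higher in cycling cells in each of the 4 libraries, where 5.14% of the 7990 genes with at least 10 CPM on either side were. The exceptions were Mcm4, Mcm6, Cdt1, Rpa2 and Msh6, and 0 of the 38 were at least 2-fold lower (0.388% of all genes). Cdc6, Mcm10, Cdc45, Gins1 and Pole were among those that passed the filter only through cycling cells, where they were higher. The counts are therefore not read as a result. The median log2 ratio was 2.06 for the 38 genes and 0.04 for all genes tested. Of the 50 other replication genes, 48 passed the level filter, and 29 of these passed the fold, with a median of 1.46. E2f8 (4.33), Asf1b (3.65) and Mybl2 (3.55) had the highest of these ratios. Samhd1, which degrades deoxynucleotides, had the lowest (-0.77), followed by the p53-induced reductase subunit Rrm2b (-0.63) and the Cdk inhibitor Cdkn1b (-0.48). All 30 mitosis genes passed, with a median of 4.50, from Racgap1 (2.16), Cenpa (2.47) and Cks2 (2.75) up to Ccna2 (5.16), Hmmr (5.20) and Cenpf (5.33).

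**Figure D2:**
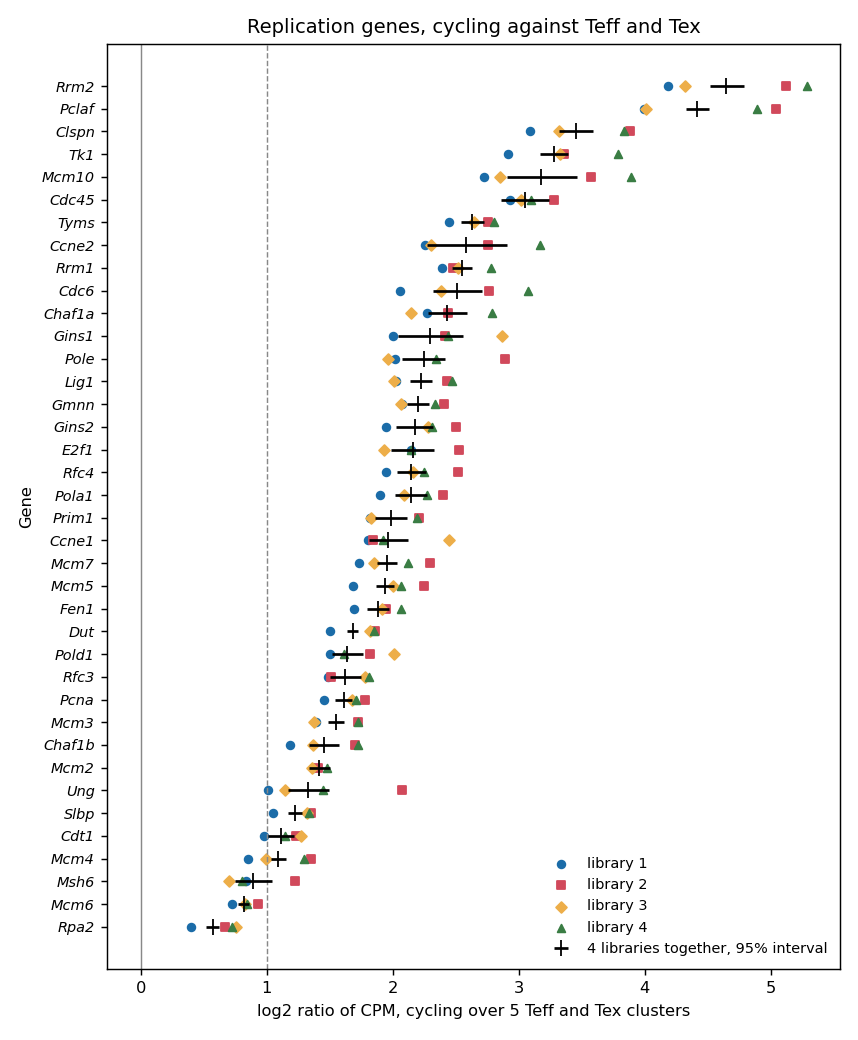
Log2 ratio of CPM in cycling cells to CPM in the 5 Teff and Tex clusters (horizontal axis) for each of the 38 genes, with black ticks and 95% intervals for the 4 libraries together and points for single libraries. The dashed line marks a 2-fold difference. Ratios run from 0.57 for Rpa2 to 4.65 for Rrm2.

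The licensing genes held the most UMIs of all role groups in Tn and had one of the smaller contrasts. Together they were at 1446 CPM in cycling cells, 546 in Teff and Tex clusters and 331 in Tn, and the log2 ratio of cycling cells to Teff and Tex clusters was 1.40 (single libraries 1.23 to 1.62). Mcm6, a helicase subunit (ENSMUSG00000026355, chr1:128331590-128359664), had the most UMIs of this group, with 315, 282, 300 and 319 CPM in cycling cells of libraries 1 to 4. It was at 191, 148, 169 and 178 CPM in Teff and Tex clusters, and its ratio was 0.82 (0.77 to 0.86), under 2-fold in each library. Mcm6 also had the highest level of the 38 genes in Tn, at 77.6 CPM. Cdc6, the helicase loader (chr11:98907801-98923940), had the fewest UMIs and the highest ratio of the group. It was at 32.7, 37.6, 42.7 and 38.7 CPM in cycling cells and 7.85, 5.52, 8.17 and 4.61 CPM in Teff and Tex clusters (log2 ratio 2.51, 2.32 to 2.71). In Tn it was near the limit of detection, with 16 UMIs in all (1.47 CPM). Mcm2, Mcm3, Mcm5, Mcm7 and Gmnn had ratios from 1.42 to 2.20. Mcm4 (1.09) and Cdt1 (1.11) lay just above 2-fold with all libraries pooled and under it in library 1 (0.85 and 0.98), and Mcm4 also in library 3 (0.99). Mcm7 overlaps 2 genes of the opposite strand, Cops6 and Ap4m1.

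Helicase activators were scarce outside cycling cells and showed a larger contrast. Their sum was 150 CPM in cycling cells, 24.8 in Teff and Tex clusters and 12.8 in Tn. Mcm10 (chr2:4989714-5012791), a scaffold of the firing helicase, was at 25.3, 26.3, 34.9 and 25.7 CPM in cycling cells and 3.83, 2.21, 4.83 and 1.74 CPM in Teff and Tex clusters, a ratio of 3.18 (2.90 to 3.46). In Tn it had 7 UMIs in all, and 0 in library 3. Gins2 had the most UMIs of the group (52.5 CPM in cycling cells) and the lowest ratio (2.17, libraries 1.95 to 2.50), and Gins1 the fewest (19.2 CPM, ratio 2.29). Cdc45, which rides with the helicase, had a ratio of 3.05. Polymerase genes were intermediate. Pola1 was at 75.5, 67.8, 100 and 55.1 CPM in cycling cells, so library 3 stood highest and library 4 lowest, and its ratio was 2.14 (1.90 to 2.40 by library). The polymerase epsilon subunit Pole was at 42.7 CPM in cycling cells with the highest ratio of this group (2.24), primase (Prim1) had 1.99, and the polymerase delta subunit Pold1 had the lowest (1.64, with 59.1 CPM in cycling cells and 17.6 in Tn).

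Genes of the clamp, its loader, single-strand binding and Okazaki fragment joining spanned nearly the whole range of the contrast, from Rpa2, the lowest of the 38, to Pclaf, below Rrm2 alone. Pclaf (ENSMUSG00000040204, chr9:65890237-65903266) had the most UMIs of the 38 genes in cycling cells. It was at 487, 609, 567 and 590 CPM in cycling cells, 30.5, 18.5, 35.3 and 19.9 CPM in Teff and Tex clusters and 14.1, 3.20, 11.2 and 4.76 CPM in Tn. The log2 ratio of cycling cells to Teff and Tex clusters was 4.42 (4.33 to 4.51), or 21.4-fold. Rpa2 (ENSMUSG00000028884, chr4:132768332-132778752) encodes a subunit of the single-strand binding protein RPA, which also serves in DNA repair. It was at 214, 213, 166 and 245 CPM in cycling cells and 162, 134, 98.2 and 149 CPM in Teff and Tex clusters. Library 3 was lowest in both, the log2 ratio was 0.57 (0.52 to 0.62), and in TIM-3+ Tex alone Rpa2 reached 190 CPM, close to the level in cycling cells. In Tn it was at 56.4 CPM. Pcna (188 CPM in cycling cells), Fen1 (127), Lig1 (164), Rfc4 (85.2) and Rfc3 (57.2) had ratios from 1.61 to 2.22, with Rfc3 at the fewest UMIs.

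Genes of nucleotide supply ranged from Dut to Rrm2, the highest of the 38. Rrm2 (ENSMUSG00000020649, chr12:24708241-24714146), the regulatory subunit of ribonucleotide reductase, was at 266, 273, 325 and 295 CPM in cycling cells. In Teff and Tex clusters it was at 14.7, 7.86, 16.3 and 7.55 CPM and in Tn at 6.25, 1.2, 3.35 and 1.90 CPM. Its ratio of 4.65 (4.52 to 4.78), or 25.1-fold, was the highest of the 38 genes. Thymidine kinase Tk1 was at 178 CPM in cycling cells and 18.4 in Teff and Tex clusters (3.28), thymidylate synthase Tyms had the fewest UMIs of the group (173 CPM, ratio 2.63), and the large reductase subunit Rrm1 was at 225 CPM (2.55). Dut, whose product removes dUTP, had the most UMIs of the group (452, 541, 370 and 539 CPM in cycling cells), the highest level of it in Tn (68.3 CPM) and the lowest ratio (1.68, 1.64 to 1.73). Tk1 overlaps 2 genes of the opposite strand in the table.

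Both repair genes were low in every cluster, with small contrasts. Ung, which removes uracil from DNA, was at 23.5, 45.5, 24.6 and 32.3 CPM in cycling cells, with library 2 highest, against 11.7, 10.8, 11.1 and 11.9 CPM in Teff and Tex clusters (ratio 1.33). The mismatch repair gene Msh6 was at 29.6 CPM in cycling cells and 16 in Teff and Tex clusters (0.89), and their levels in Tn were 11.8 and 10.4 CPM. Among genes of histone supply and chromatin assembly, Slbp, which binds the stem loop of histone mRNAs, was at 235, 272, 275 and 294 CPM in cycling cells, 113 CPM in Teff and Tex clusters and 74.7 CPM in Tn (ratio to Teff and Tex 1.22). Chaf1a and Chaf1b encode chromatin assembly factor 1, and their ratios were 2.43 and 1.46 at a similar level in cycling cells (55.1 and 58.9 CPM). For G1/S control and the fork checkpoint, claspin (Clspn, chr4:126556935-126593903) was at 137, 126, 179 and 101 CPM in cycling cells and 16.1, 8.59, 18 and 7.10 CPM in Teff and Tex clusters, a ratio of 3.45 (3.32 to 3.59). The cyclins Ccne1 (45.8 CPM, 1.96) and Ccne2 (15 CPM, 2.58) and the transcription factor E2f1 (39.5 CPM, 2.16) were lower, and Ccne1 had the highest level of this group in Tn (8.90 CPM).

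**Figure D3:**
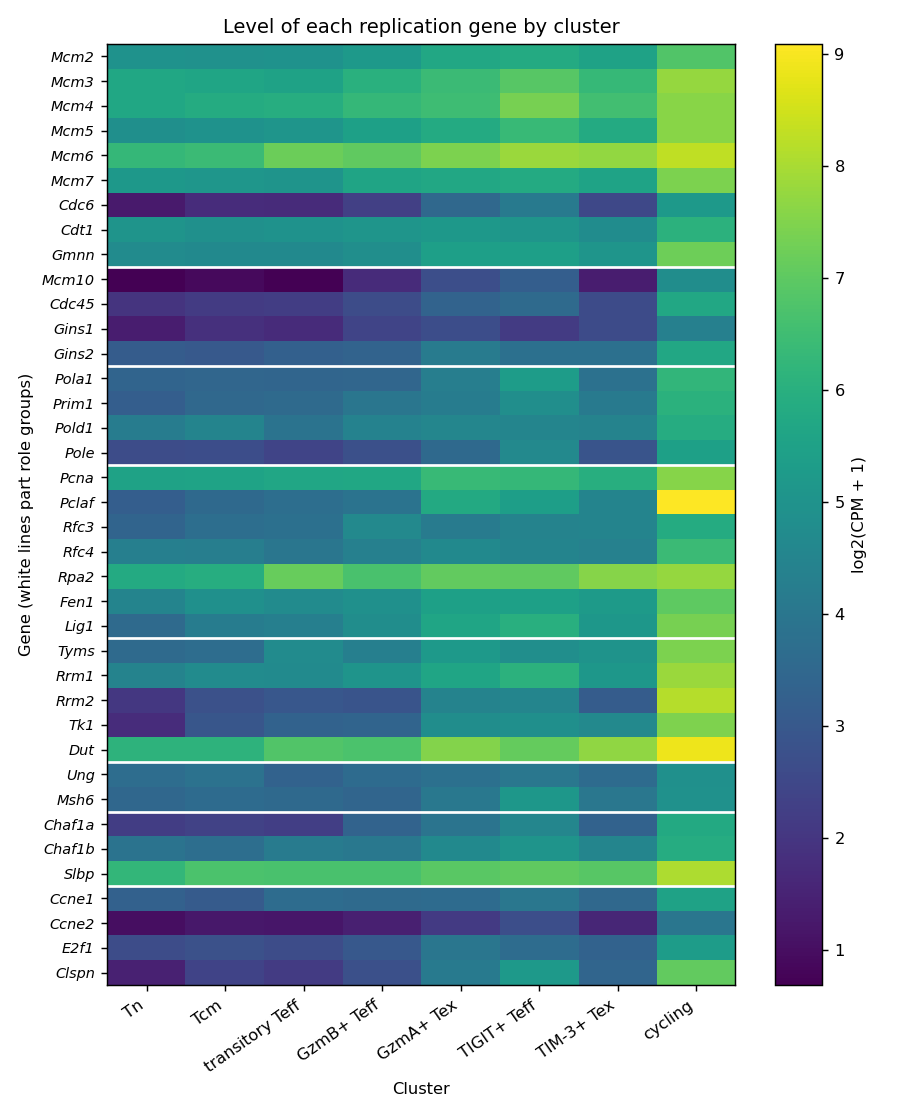
Level of each of the 38 genes (rows, in role groups parted by white lines) in the 8 clusters (columns), as log2(CPM + 1) over the 4 libraries together. Mcm6, Dut, Rpa2 and Slbp are well above 0 in every cluster, whereas Pclaf reaches 545 CPM and Rrm2 285 CPM in cycling cells from 8.16 and 3.12 CPM in Tn.

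The mix of transcripts therefore differed between clusters. Pclaf made up 1.03% of the UMIs of the 38 genes in Tn and 10.4% in cycling cells, Rrm2 0.393% and 5.46%, and Clspn 0.22% and 2.54%. Slbp went the other way, from 9.41% in Tn to 5.04% in cycling cells. Rpa2 was at 7.11% in Tn, 13.1% in transitory Teff and 4.11% in cycling cells.

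Teff and Tex clusters lay above Tn in their summed level. The log2 ratio was 0.84 (0.81 to 0.87), with 0.82, 0.96, 0.93 and 0.63 in libraries 1 to 4, while the median of all genes tested in this comparison was 0.30. Without cells in which 2 or more mitosis genes were detected, the ratio was 0.48 (libraries 0.34 to 0.65). This left out 42.9% of Tn and 71.3% of TIGIT+ Teff cells, in both the deeper ones. Racgap1 and Cks2 were higher in Tn (64.2 and 53.3 CPM) than in Teff and Tex clusters (45.6 and 44.7). Whether the cells left out were dividing was not tested. With the Leiden cluster number in place of the name the ratio was 0.39, because the number of Tn also holds cells named Tcm (described next). Without those cells the value by number was 0.85. Of the 31 genes past the level filter, 7 were at least 2-fold higher in each library, against 5.57% of 7741 genes. They were Pclaf, Rpa2, Lig1, Rrm2, Tk1, Chaf1a and Clspn. All but Rpa2 and Lig1 passed the filter only through Teff and Tex clusters, where they were higher, so the count is not read as a result. Tk1 was at 3.13, 2.40, 2.23 and 1.90 CPM in Tn and 23.3, 17.6, 15.8 and 14.0 CPM in Teff and Tex clusters, a log2 ratio of 2.94 (2.38 to 3.57) over the pooled cells and 2.82 to 2.90 in single libraries. In Tn a Tk1 UMI was found in 1.86% of cells, so the Tk1 ratios rest on few UMIs. Intervals of Cdt1 (-0.07), Ung (-0.04), Rfc4 (0.01) and Pold1 (0.11) held 0. In TIGIT+ Teff, 34 of the 38 genes were above the other 4 Teff and Tex clusters over pooled cells, where 71.0% of 8207 genes were. By library, 35, 36, 34 and 19 of them were above in libraries 1 to 4, where 69.2%, 67.9%, 73.0% and 61.2% of all genes were, so in library 4 their share was not above that of all genes. In each of the 4 libraries 18 were above (45.5% of all genes). The highest ratios were those of Clspn (2.16, libraries 1.39 to 2.60), Mcm10 (2.0, with libraries from just above 0 to 2.33) and Pole (1.95, 0.71 to 2.10). Across the 38 genes, which are not independent, this ratio went with gene length (Spearman's rho 0.50), and its part in the level of TIGIT+ Teff was not tested.

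A small set of cells named Tcm carried replication transcripts at a high level and mitosis transcripts far below the level of cycling cells. The Leiden number of Tn also stood on 132 of the 3418 cells named Tcm, and these cells were singled out after their values had been seen. Their summed level was 2219, 3384, 3335 and 3786 CPM in libraries 1 to 4 (24, 31, 15 and 62 cells) and 3394 CPM over all of them (3300 to 3490), against 725 CPM in the other 3286 Tcm cells and 793 CPM in Tn. All 4 library values lay above those of every other cluster outside cycling (highest 2107 CPM). Without these cells Tcm were below Tn (log2 ratio -0.13, -0.17 to -0.09, libraries -0.30 to 0.10), whereas with them Tcm were above Tn (0.14, libraries -0.17 to 0.58). The 30 mitosis genes summed to 356 CPM in the 132 cells, near the 348 CPM of transitory Teff, with a log2 ratio to cycling cells of -4.19. They were 1.87-fold above other Tcm (log2 ratio 0.91, libraries 0.28 to 1.42) and 1.46-fold above Tn (libraries 0.08 to 0.87 in log2). Their level per cell was uneven, with quartiles at 711, 2964 and 4473 CPM. At 2500 UMIs, 65.9% of these cells had 3 or more of the 38 genes (57.2% to 73.9%), and 21.9% of the other Tcm cells did. Their median depth was 11034 UMIs against 6901 in other Tcm, and the part of depth was not tested beyond the thinning.

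In these 132 cells all 38 genes were above the other Tcm cells over pooled cells, where 40.2% of 7554 genes were, and 36 of them were at least 2-fold higher (3.44%). The cells were picked with these values known, so nothing is read from the counts. E2f1 was at 48.2 CPM against 3.31, Mcm5 at 207 against 20.2, Lig1 at 120 against 11.5 and Cdc6 at 28.2 against 0.869, whereas Rpa2 (109 against 56.3) and Slbp (182 against 98.1) had less than a 2-fold difference. The role groups did not stand in the same ratio to cycling cells. Licensing genes were at the level of cycling cells (1470 and 1446 CPM, log2 ratio 0.02, -0.04 to 0.09), with library 1 below (-0.57) and the other libraries up to 0.12. Of the 2 repair genes, Ung was 2.26-fold above cycling cells (65.4 and 28.9 CPM, libraries 0.42 to 1.62 in log2), while the interval of Msh6 held 0 (-0.07, -0.56 to 0.38). Nucleotide supply was below it, with a log2 ratio of -1.42 (libraries -2.15 to -1.31). Pclaf was at 31.4, 45.1, 81.3 and 93.9 CPM in these cells, against 545 CPM in cycling cells. Rrm2 was at 0, 11.3, 11.6 and 47.0 CPM in libraries 1 to 4, against 285 CPM in cycling cells. At 50 CPM or more in these cells stood 2441 genes, of which 22 were among the 38. The 40 of them highest above other Tcm held 19 of the 38 genes and 0 mitosis genes. They were led by Stmn1 (15.8-fold), Cdca7 (14.1-fold) and Uhrf1 (13.9-fold). The ranking asked for 50 CPM in these same cells, which were picked with their values known. The 19 is therefore not read as a result. The 30 mitosis genes summed to 356 CPM in these cells, so few could reach 50 CPM, and the 0 is not read as a result either. Summed naive T cell markers were at 644 CPM in these cells, 1481 in Tn and 670.5 in other Tcm. Summed NK receptor and memory markers were at 597, 167 and 1289 CPM in the same order, and effector and exhaustion markers at 210, 128 and 280 CPM. A TCR was called in 107 of the 132 cells, and 8 of these belonged to a clone of 2 or more cells in their library.

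**Figure D4:**
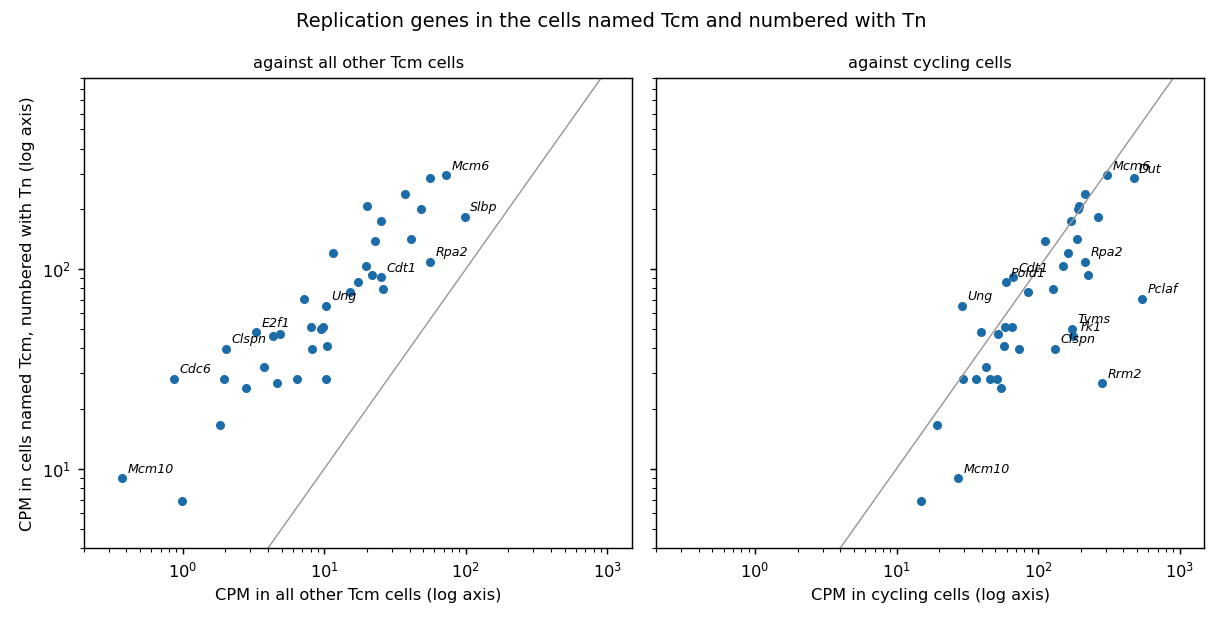
CPM of the 38 genes in the 132 cells that were named Tcm and numbered with Tn (vertical axis, log scale) against their CPM in all other Tcm cells (left) and in cycling cells (right, log scale), with grey lines where both are equal. All 38 points lie above the line on the left, and on the right Rrm2, Pclaf, Tk1 and Tyms lie furthest below it while Ung lies above it.

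Within cycling cells the 38 genes did not move as a block. These cells were ordered in each library by the share of UMIs from the 30 mitosis genes, none of which is among the 38, and cut into 4 bins of 480 to 484 cells. The mitosis genes ran from 1477 CPM in bin 1 to 14646 CPM in bin 4, and the median depth was 14790, 15173, 14808 and 10410 UMIs. The summed level of the 38 genes was 6177, 5528, 4720 and 4176 CPM in bins 1 to 4, a log2 ratio of bin 4 to bin 1 of -0.56 (libraries -0.62 to -0.46). CPM is a share of all UMIs, so a higher share of mitosis transcripts in a cell lowers the share of others. The part of this in the fall of the 38 genes across bins was not tested. Of the 38 genes, 30 were highest in bin 1, as were 26.2% of 7677 genes, and 25 were lower in each bin than in the one before (16.2%). Counted in each library, 12 of the 38 were at least 2-fold higher in bin 1 than in bin 4 (Mcm2, Mcm3, Mcm6, Cdc6, Cdt1, Gins1, Gins2, Rfc3, Ung, Chaf1b, Ccne2 and E2f1), against 0.782% of all genes, and 0 were at least 2-fold lower (3.15%).

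The sharpest gradient was that of Ung, at 71.0, 26.3, 9.26 and 1.67 CPM in bins 1 to 4. Its level in bin 4 was near the floor (0.77 to 3.18), with a library at 0. E2f1 was at 73.7, 44.5, 22.8 and 8.75 CPM (log2 ratio -3.07, libraries -3.84 to -2.40), Cdc6 at 62.6, 44.3, 19.8 and 14.0 CPM (-2.16) and Ccne2 at 22.8, 19.9, 9.41 and 5.21 CPM (-2.13). These are genes of G1/S entry, licensing and uracil removal, but not every gene of their role groups fell alike. G1/S control and the fork checkpoint as a group was at 275 CPM in bin 1 and 204 CPM in bin 4 (-0.43, libraries -0.80 to 0.33). The licensing group as a whole was at 2076 CPM in bin 1 and 871 CPM in bin 4 (-1.25, libraries -1.41 to -1.10). Nucleotide supply, in contrast, was nearly level, at 1316, 1400, 1342 and 1264 CPM (-0.06, libraries -0.24 to 0.12). Rrm2 was higher in bin 4, at 204, 305, 308 and 337 CPM (0.73, libraries 0.36 to 1.42), and so was Rrm1, at 182, 212, 239 and 283 CPM (0.64, libraries 0.40 to 1.07). Pclaf was lowest in bin 1 and highest in bin 3 (405, 572, 627 and 588 CPM), with a ratio of bin 4 to 1 of 0.54 (libraries 0.03 to 1.13). Clspn (0.28) and Pola1 (0.26) were highest in bin 4 with all libraries pooled, but their libraries ran from -0.18 to 1.04 and from -0.47 to 1.18. Intervals of Tk1 (-0.04) and Mcm10 (-0.29) held 0. Side by side, bin 1 and the 132 cells named Tcm had Ung at 71.0 and 65.4 CPM, while Rrm2 was at 204 and 26.8 CPM.

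**Figure D5:**
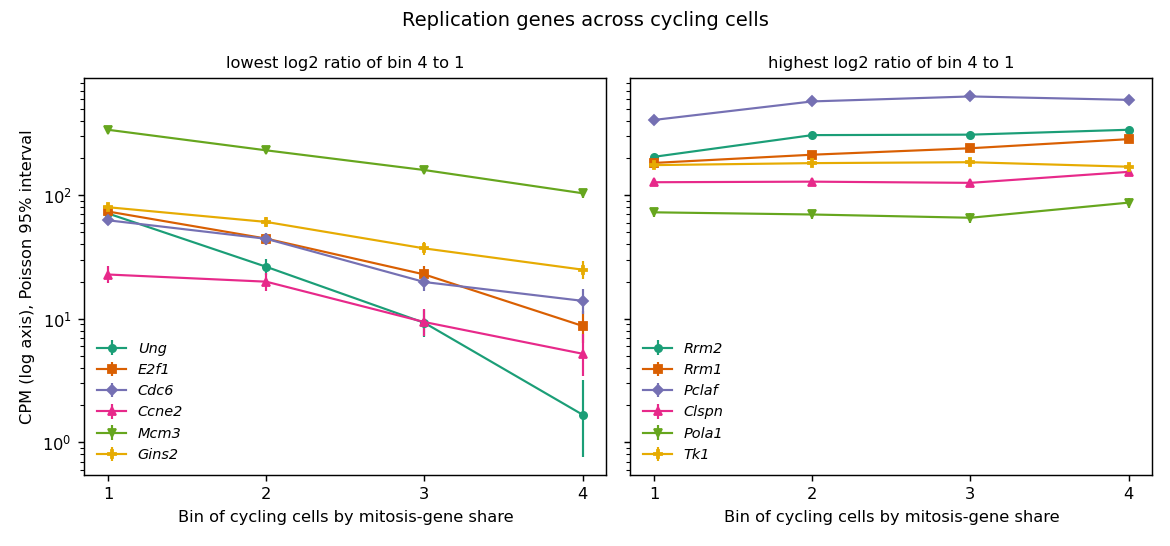
CPM (vertical axis, log scale, with Poisson 95% intervals) of the 6 genes with the lowest (left) and the 6 with the highest (right) log2 ratio of bin 4 to bin 1, across bins of cycling cells ordered by their share of mitosis-gene UMIs (horizontal axis). Ung runs from 71.0 to 1.67 CPM, and Rrm2 from 204 to 337 CPM.

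The 8 genes highest in bins 2 to 4 were Pola1, Pclaf, Tyms, Rrm1, Rrm2, Tk1, Slbp and Clspn. All of them had a promoter in the table, where 3 held an E2F word and 6 a CCAAT box. Of the 30 genes highest in bin 1, 24 had a promoter, with 10 and 13 respectively. Among all genes with a promoter, 2.6% held an E2F word and 41.1% a CCAAT box. With 8 genes in the smaller set, no difference between the sets is read. The set of 8 includes Pola1 and Pclaf, whose E2F words are printed above, as well as Rrm1 and Rrm2.

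Clone size was the one grouping that used no expression. A TCR was called in 51.6% of cycling cells and 76.4% of transitory Teff, and clones were counted within a library. In cycling cells, 747 cells of clones with 2 or more cells had 6350 CPM of the 38 genes and 248 cells of single clones had 5765 CPM, a log2 ratio of 0.14 (0.11 to 0.16, libraries 0.06, 0.16, 0.06 and 0.28). Library 4 carried much of this difference, and without it the ratio was 0.081. Expanded cells were shallower (median 11045 against 12260 UMIs), and their mitosis genes were 0.31 higher (libraries -0.08 to 0.67). Rpa2 had the clearest difference of single genes, at 258 against 179 CPM (0.52, libraries 0.25 to 0.78), followed by Dut (0.40, libraries 0.05 to 0.61) and Mcm6 (0.38, libraries 0.19 to 0.51). Pclaf (0.07) and Rrm2 (-0.05), the genes with the largest cluster contrast, had intervals that held 0. In transitory Teff, 1076 cells of expanded clones had 1097 CPM and 368 of single clones 978 CPM (0.17, libraries -0.09 to 0.46). Rpa2 (0.51, libraries 0.31 to 0.74), Dut (0.51, 0.16 to 0.87) and Mcm6 (0.44, -0.08 to 1.06) were again higher in expanded clones, and Ung (-1.19), Mcm3 (-0.51) and Gins2 were lower over the libraries together.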

How the data were processed

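CD8+ T cells from 4 pooled samples were measured by 5′ single-cell RNA and TCR sequencing. The authors processed reads with cellranger (Cell Ranger 7.00 and mm10 in the submitters' processing notes), downsampled them across libraries, and kept cells within limits of UMI number and mitochondrial RNA that had Cd8a and Cd3e or Cd3g. The deposited table holds raw UMI counts per gene and cell with no normalization, and the deposited mitochondrial share is a fraction. Cluster names and numbers are from Leiden clustering in Monocle3, and clonotypes from scRepertoire, whose version is not given in the sources used here. No doublets were removed here. Symbols came from GENCODE M21 (GRCm38), whose coordinates are printed for genes, and were found for 17534 genes.

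UMIs were summed per cluster and library and divided by all UMIs of the same cells. Ratios were counted as past the fold at 2 in each library, for genes with at least 10 CPM on either side, and a count of 0 on the lower side was set to 3. Thinning to 2500 UMIs used seed 7. Each UMI marks the end of a molecule, so no division by gene length was made, and levels of different genes are read as captured molecules. The 38 genes and all other lists were chosen with earlier results of these data known. The rule for named genes took every one of the 38, with full values for the extremes of each role group in counts, ratio and level in Tn, and the 3 highest and 3 lowest ratios of the other lists. Genes of the 132 cells outside this rule were named after their values were seen. Between libraries no test was made, since each group has 1 library. Tables were handled with pandas 2.3.3 and numpy 2.4.6, intervals came from scipy 1.17.1, plots from matplotlib 3.10.9 (Python 3.11.15), and the calculation of ratios, intervals and thinning was tested on simulated data.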

Additional observations from a re-analysis of the deposited data

How the results depend on the processing

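No paired analysis was possible because each treatment group is 1 library and library numbers carry no treatment. Of the recomputed values, 35 lay within the 95% interval of the reported value (counts within 1.5 times) and 46 outside it. A direction was checked for log2 ratios alone, of which 0 reversed, since levels, shares and counts have none. The summed level in cycling cells was 5294 CPM after thinning, 5315 with cells weighted equally and 5873 without the 6670 cells holding a UMI of macrophage, plasma, B, erythroid or neutrophil lists (1491 of them cycling cells), and 5141 to 5393 leaving out a library. In the other clusters, 1159 CPM as reported, it was 1077 after thinning, 1072 with equal weights, 1150 by Leiden number, 934 without those cells, 815 without cells with 2 or more mitosis genes, and 1113 to 1181 leaving out a library. After the data were seen, leaving out the 132 cells named Tcm was added, and gave 1117 by name and 1108 by number. The log2 ratio of cycling cells to Teff and Tex clusters was 1.96, 1.97 and 2.26 under thinning, equal weights and without cells with other UMIs, and 1.82 to 2.01 leaving out a library. Against Tn, the ratio for the pooled Teff and Tex cells was 0.79 without cells with other UMIs, 0.48 without cells with mitosis genes, 0.39 by Leiden number, and 0.80 to 0.93 leaving out a library. The count of 33 genes was 31 to 34 under the alternatives to the cells, 37 at a fold of 1.5 and 14 at a fold of 4. Shares of cells with 3 or more genes, 90.7% in cycling cells and 33.9% in the others, were 99.5% and 81.4% without thinning, 96.6% and 58.7% for 2 or more genes, 79.7% and 10.6% for 5 or more, and 90.0% to 92.0% and 31.9% to 35.1% leaving out a library. In cycling cells ordered by mitosis genes, the ratio of bin 4 to bin 1 was -0.43 after thinning, and -0.58 to -0.53 leaving out a library. Clone ratios were 0.20 in cycling cells and 0.24 in transitory Teff with clonotypes by TRB CDR3 amino acids, and 0.081 to 0.18 and 0.11 to 0.25 leaving out a library. With 1 base fewer at its end the CCAAT word was in 93.8% of the promoters (91.7% of all genes), and the E2F words in 50% (7.65%). Causes of these shifts were not tested, beyond the cells left out. Rare genes such as Mcm10 and Ccne2 in Tn rest on few UMIs.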

Other observations

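Cells outside the cycling cluster can belong to a clone that has a cycling cell in the same library, and the summed level of the 38 genes was compared between such cells and other cells with a TCR, a comparison added after the data were seen. In TIGIT+ Teff, 200 cells of clones with a cycling cell had 2918 CPM and 164 cells of other clones 1817 CPM (log2 ratio 0.68, libraries 0.50 to 0.95). In GzmB+ Teff the values were 1573 CPM in 93 cells and 1016 CPM in 409 cells (0.63, libraries 0.21 to 1.42), and in GzmA+ Tex 2221 CPM in 113 cells and 1113 CPM in 121 cells (1.0, libraries -0.02 to 1.56). TIM-3+ Tex had 1752 and 1307 CPM in 467 and 108 cells (0.42, libraries -0.33 to 0.60), and transitory Teff 1120 and 980 CPM in 873 and 571 cells (0.19, libraries -0.02 to 0.32). For the mitosis genes of the same cells the log2 ratio was 0.57 in GzmA+ Tex, 0.71 in GzmB+ Teff and 0.74 in TIGIT+ Teff, but 0.07 in TIM-3+ Tex (0.18 in transitory Teff). The median depth of both kinds of cell was 6183 and 7345 UMIs in GzmA+ Tex, 3526 and 3595 in TIGIT+ Teff, and 4930 and 7453 in GzmB+ Teff. Over all cells of GzmA+ Tex and TIGIT+ Teff it was 10378 and 6047 UMIs. A TCR was called in 41.0% of GzmA+ Tex, 44.6% of TIGIT+ Teff, 54.5% of TIM-3+ Tex and 68.6% of GzmB+ Teff. A larger clone has more cells that can be cycling, and clone size was not separated from this grouping. Only 13 Tn cells and 8 Tcm cells belonged to a clone with a cycling cell, with 733 and 784 CPM.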
